A study of Mus musculus with 12 samples.

Results

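The coxsackievirus and adenovirus receptor gene Cxadr and the axonal adhesion molecules of the immunoglobulin superfamily were followed across spinal cords of wildtype mice, mice with severe spinal muscular atrophy (SMA) given vehicle, and SMA mice given ceftriaxone. The set holds 10 genes, taken by their symbols on the array: Cxadr, Ncam1, L1cam, Nrcam, Nfasc, Cntn1, Cntn2, Cntnap1, Chl1 and Thy1. They were represented by 19 of the 22690 probe sets, a probe set being a group of short probes against one transcript. No probe set carried the symbol Nfasc, so 9 genes were measured and Nfasc was not analysed here. Cxadr was chosen by its rise in SMA vehicle cords over wildtype, so its levels are described without a test. That rise was the largest among the probe sets with 1 gene symbol that were not too dim to be tested. The other genes were listed for their place in neurite growth or at the node of Ranvier, with earlier results of these arrays known.

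The arrays came from 12 mice aged 13 days, 4 in each group, on the FVB background. All groups carried the human transgenes SMN2 (Tg(SMN2)89Ahmb) and SMNΔ7, an SMN2 transcript that skips an exon (Tg(SMN2*delta7)4299Ahmb), both homozygous. The wildtype mice had 1 intact mouse Smn allele (mSmn+/−) and received vehicle. The SMA mice had none (mSmn -/-) and received either vehicle or ceftriaxone, a beta-lactam antibiotic, at 200 mg/kg daily by intraperitoneal injection from day 5. The labels speak both of whole cords and of lumbar segments, and they describe the vehicle groups also as untreated. Each mouse is a replicate by its title, and litters were not given.

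Cell adhesion molecules with immunoglobulin domains sit in the membranes of neurons and glia and bind partners on the same or the neighbouring cell. Ncam1 and the L1 family (L1cam, Chl1, Nrcam and Nfasc) guide growing neurites and bind the spectrin and ankyrin skeleton. Contactins (Cntn1 and Cntn2) are held by a lipid anchor and pair with Cntnap1 and Cntnap2 at the borders of the node of Ranvier, the gap in myelin where action potentials are renewed. Cxadr is a homophilic adhesion molecule of tight junctions, abundant in the immature nervous system and in immature muscle.

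The targeted gene separated the genotypes: Smn1 signals were 263.4 to 414.3 in wildtype, 3.6 to 5.7 in SMA vehicle and 3.3 to 15.8 in SMA ceftriaxone arrays. Neuronal and myelin markers of the cord were present, with 12 of 12 neuron markers and 10 of the 10 measured oligodendrocyte markers above the filter on dim probe sets. Wildtype array 2 stood apart. Its Pearson correlation with its own group was 0.924 to 0.930, where the remaining wildtype arrays reached 0.989, and it carried thymocyte genes, with a signal of 7862.5 for the recombinase gene Rag1 against at most 129.9 on any other array. Of the 13 probe sets of the 10 genes that passed the filter, 10 had their lowest wildtype value on this array. Xist, which marks an inactive X chromosome, had a signal above 1000 on 1 of 4 wildtype, 2 of 4 SMA vehicle and 4 of 4 SMA ceftriaxone arrays, so sex moved with the groups. The detection limit of single probe sets is unknown, and the number of arrays limits the precision.

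Cxadr was higher in SMA vehicle cords than in wildtype on 3 of its 4 probe sets. On probe set 1427321_s_at, whose name marks possible cross-hybridisation with other transcripts, the wildtype signals were 211.5, 164.4, 182.0 and 147.3. The SMA vehicle signals were 1487.1, 1495.3, 2232.6 and 2343.9. Ceftriaxone arrays read 374.2, 291.7, 474.4 and 305.9. The 3 groups did not overlap: SMA vehicle arrays were highest, ceftriaxone arrays lay between, and wildtype arrays were lowest. The mean was 176 ± 27.4 in wildtype, 1889.7 ± 462.4 in SMA vehicle and 362 ± 83.4 after ceftriaxone (SD, n = 4), which is 10.7 times the wildtype mean in the vehicle group.

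Probe set 1452391_at, which was designed on the same transcript (AK004908), repeated that order. Its signals ran from 64.1 to 80.8 in wildtype, from 641.0 to 1087.4 in SMA vehicle and from 110.7 to 219.4 in SMA ceftriaxone arrays. The vehicle mean was 11.8 times the wildtype mean. On the log2 scale after adding 16 to each signal, the difference between SMA vehicle and wildtype was 3.29 ± 0.19 (SE) for 1427321_s_at and 3.27 ± 0.20 for 1452391_at. These were the 2 largest rises among the 12588 probe sets with 1 symbol that passed the filter, and the next was a probe set of Dcx at 2.95 ± 0.23. Since Cxadr was chosen by its rise, this rank restates the choice and is no separate result. The mean log2 value of 1452391_at was 6.50 in wildtype, below the lowest mean kept by the filter (7.14), and 9.78 in SMA vehicle arrays. Between SMA ceftriaxone and SMA vehicle the differences of 1427321_s_at and 1452391_at were -2.33 ± 0.19 and -2.40 ± 0.20. Between SMA ceftriaxone and wildtype they were 0.96 ± 0.19 and 0.88 ± 0.20.

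The third Cxadr probe set, 1449949_a_at, was designed on another transcript (U90715) and lay below the filter. It read 307.1, 321.5, 539.6 and 503.5 in SMA vehicle arrays, against 42.5 to 81.4 in wildtype. In ceftriaxone arrays it read 44.5, 31.9, 96.7 and 38.5, which overlapped the wildtype range. Its mean in vehicle cords was 6.53 times that of wildtype, and its difference between SMA ceftriaxone and wildtype was -0.28 ± 0.28. The 2 probe sets on AK004908 therefore read ceftriaxone cords above wildtype, and the one on U90715 did not. The fourth, 1451865_at, was near 0 throughout, with 4.8 as its lowest wildtype value and 3.7 as its highest SMA vehicle value, so it did not follow the others. Cxadr transcripts are spliced to alternative ends, and which of them each probe set reads was not tested.

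**Figure D1:**
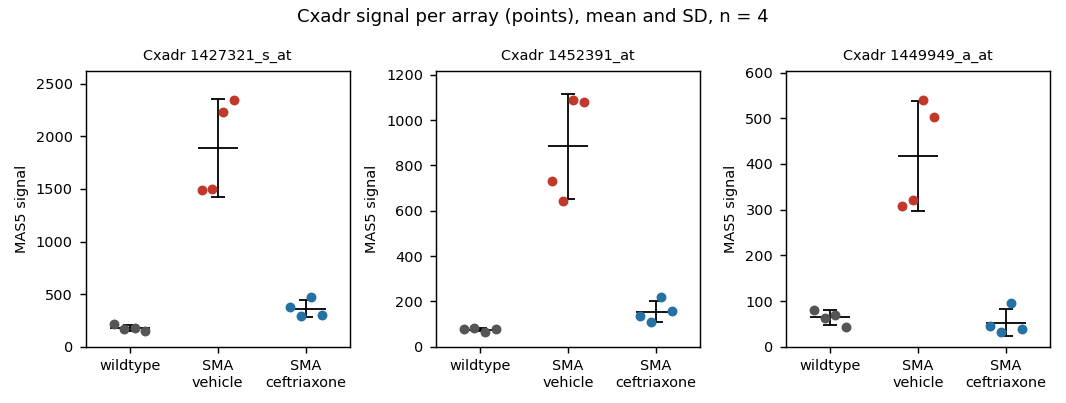
MAS5 signal (vertical axis, linear) of the 3 brighter Cxadr probe sets in each array, with the group mean and SD (bar, n = 4). The SMA vehicle arrays lie above all others on each, from 1487.1 to 2343.9 on 1427321_s_at, while ceftriaxone arrays lie above wildtype on the first 2 and among them on 1449949_a_at.

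Within the SMA vehicle group, arrays 3 and 4 had higher Cxadr signals than arrays 1 and 2 on all 3 of these probe sets. The same arrays had the least oligodendrocyte and most muscle signal. The summed signal of 10 oligodendrocyte and myelin genes was 33615.0 and 26323.2 on arrays 3 and 4, against 55469.7 and 51156.2 on arrays 1 and 2. The summed signal of 12 skeletal muscle genes was 6775.7 and 6664.0 on arrays 3 and 4, against 2946.5 and 4013.5 on arrays 1 and 2.

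Markers of other cell types moved with the groups as well. The muscle sum ran from 742.4 to 1971.6 in wildtype, from 2946.5 to 6775.7 in SMA vehicle and from 411.4 to 950.6 in SMA ceftriaxone arrays. Of the 12 muscle genes, 3 passed the filter (Acta1, Myl1 and Mylpf). The myelin sum ran from 89672.3 to 144959.9 in wildtype, from 26323.2 to 55469.7 in SMA vehicle and from 104611.2 to 114935.0 in ceftriaxone arrays. For ependyma, cells that line the central canal and can make Cxadr, 3 of 8 markers were on the array, and their sum was 256.8 to 375.4, 432.3 to 559.8 and 330.4 to 430.1 in the same order. The part of these cells in the signals of Cxadr and the other genes was not tested, and in whole tissue fewer cells of a type cannot be told apart from less RNA per cell.

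**Figure D2:**
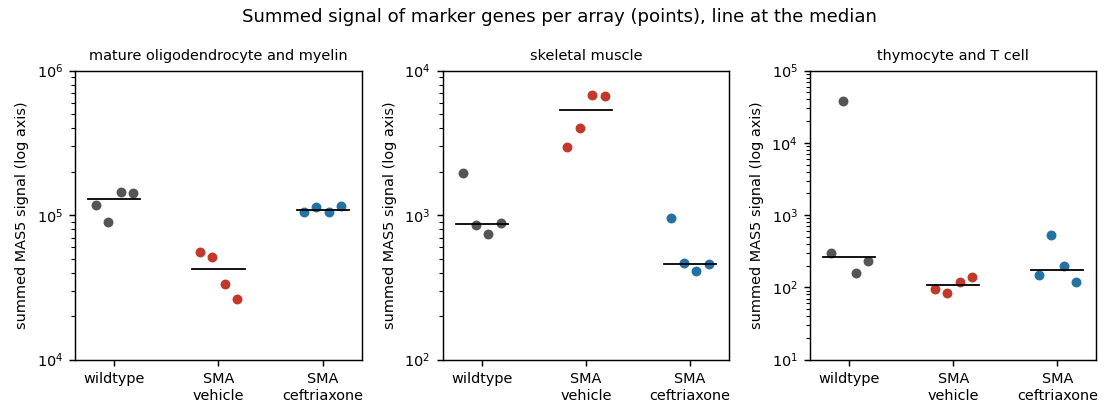
Summed MAS5 signal (log axis) of the markers of oligodendrocytes and myelin (10 genes), skeletal muscle (12 genes) and thymocytes (10 genes) on each array, with a line at the group median. SMA vehicle arrays are lowest for myelin and highest for muscle, and wildtype array 2 alone reaches 38369.5 for thymocyte genes.

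Of the 15 probe sets of the other 8 genes, 11 passed the filter, covering 6 genes, and 4 did not. In SMA vehicle against wildtype cords, 7 of the 11 rose and 1 fell (limma adjusted p under 0.05), in a comparison in which 24.9% of all 13575 tested probe sets rose, 22.3% fell and 47.2% were called in all. Their median log2 difference was 0.43, against 0.01 over all tested probe sets. Since the genes were listed with results known, this share describes them and is no evidence for the list. Ncam1, L1cam, Chl1 and Nrcam rose, Cntn1 rose on 1 of its 2 probe sets, and Thy1 fell. The signals of both groups did not overlap for 7 of the 11, as for 42.5% of all tested probe sets.

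Ncam1, the neural cell adhesion molecule, was read by 6 probe sets that gave different answers. On 1426864_a_at its signals were 1838.6, 1265.0, 1526.8 and 1493.9 in wildtype cords. They were 4631.5, 4955.8, 5234.2 and 4831.1 with vehicle, and 2751.1, 2171.7, 2850.6 and 2271.3 with ceftriaxone. No 2 groups overlapped. It rose by 1.68 ± 0.11 (log2, SE) in SMA vehicle cords (adjusted p = 6.65e-07), from a mean of 1531 ± 236 to 4913 ± 252 (SD, n = 4). It was lower by a difference of -0.97 ± 0.11 after ceftriaxone (adjusted p = 7.77e-05) and stayed above wildtype by 0.71 ± 0.11 (adjusted p = 0.00609).

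Probe set 1426865_a_at, on the same expressed sequence (BB698413), gave 842.3 to 1066.8 in wildtype, 2303.4 to 2665.0 in SMA vehicle and 1368.5 to 1576.8 in SMA ceftriaxone arrays. Again no 2 groups overlapped. The differences were 1.33 ± 0.09 for SMA vehicle against wildtype (adjusted p = 5.07e-07) and -0.75 ± 0.09 for ceftriaxone against vehicle (adjusted p = 7.14e-05). Ceftriaxone cords exceeded wildtype by 0.58 ± 0.09 (adjusted p = 0.00412).

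The probe sets designed on the Ncam1 reference transcript (NM_010875) did not rise. On 1450437_a_at the signals were 2804.4, 1501.0, 2385.5 and 2490.2 in wildtype, 2200.7, 2213.5, 1911.5 and 2010.5 in SMA vehicle, and 2124.4, 2673.9, 2443.3 and 2643.1 in ceftriaxone cords. All groups overlapped, and SMA vehicle differed from wildtype by -0.10 ± 0.16 (adjusted p = 0.611). Without wildtype array 2, which held the 1501.0, this probe set fell in SMA vehicle cords (-0.29 ± 0.09; adjusted p = 0.0125) and rose after ceftriaxone (0.24 ± 0.08; adjusted p = 0.0276). Probe set 1450438_at, with signals of 102.3 to 159.4 over all arrays, differed by 0.05 ± 0.16 (adjusted p = 0.828). The dim probe sets 1425126_at and 1421966_at read 15.1 to 61.6 and 1.1 to 4.3, and neither passed in the model over all probe sets.

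The ratio of the 1426864_a_at signal to that of 1450437_a_at was 0.600 to 0.843 in wildtype, 2.10 to 2.74 in SMA vehicle and 0.812 to 1.30 in SMA ceftriaxone arrays. The vehicle ratios lay above all others. On the log2 scale the ratio differed by 1.79 between SMA vehicle and wildtype cords, by -1.21 between ceftriaxone and vehicle, and by 0.57 between ceftriaxone and wildtype. With 1426865_a_at as numerator these differences were 1.43, -0.99 and 0.44. Without wildtype array 2 the differences from wildtype were 1.89 and 1.56 in SMA vehicle cords. The ratio was formed because these probe sets had been seen to differ, so it is a description and no test is given. Ncam1 is spliced into membrane-spanning forms of neurons and a lipid-anchored form that glia also make, and which of them each probe set reads was not tested.

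**Figure D3:**
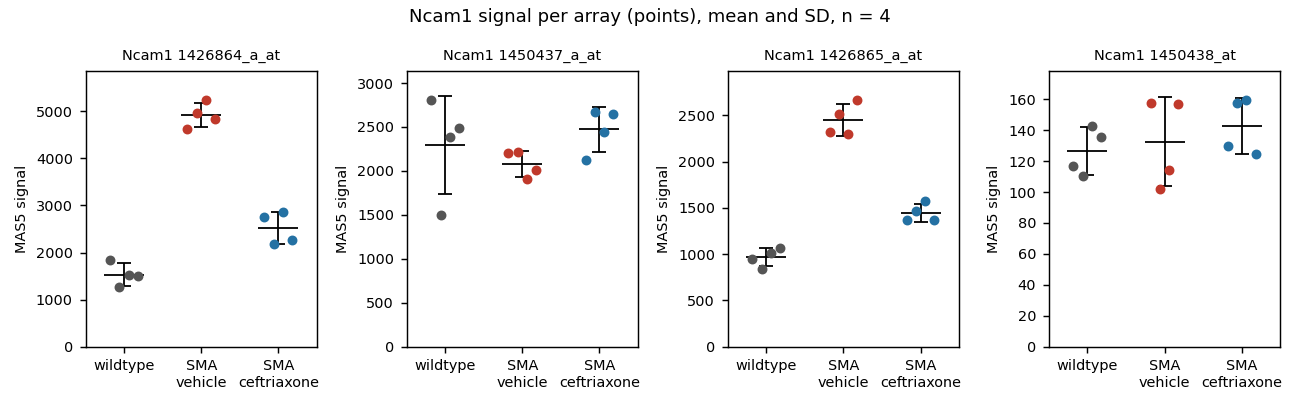
MAS5 signal (linear axis) of the 4 Ncam1 probe sets that passed the filter on each array, with the group mean and SD (n = 4). The SMA vehicle arrays lie above both other groups on 1426864_a_at (4631.5 to 5234.2) and 1426865_a_at, and within or below them on 1450437_a_at.

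L1cam, the founding member of the L1 family and a gene of the X chromosome, rose on both of its probe sets. On 1450435_at the signals were 2170.7, 1286.3, 1821.5 and 1652.0 in wildtype, and 4102.9, 4205.6, 4541.0 and 4449.1 in SMA vehicle cords. The ceftriaxone arrays read 2585.1, 1944.1, 2523.2 and 2000.4, overlapping wildtype and lying below every vehicle array. The difference between SMA vehicle and wildtype was 1.34 ± 0.14 (log2, SE; adjusted p = 9.18e-06), and that between ceftriaxone and vehicle was -0.94 ± 0.14 (adjusted p = 0.000294). The dimmer probe set 1421958_at gave 1.37 ± 0.16 (adjusted p = 2.22e-05) and -0.86 ± 0.16 (adjusted p = 0.00131).

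Against wildtype, the L1cam differences of ceftriaxone cords were 0.40 ± 0.14 (adjusted p = 0.134) and 0.50 ± 0.16 (adjusted p = 0.103). Of the 12 runs that left out 1 array, both passed only without wildtype array 1, the highest of its group. They were then 0.51 (adjusted p = 0.0455) and 0.62 (adjusted p = 0.0426). Without wildtype array 2 they were 0.26 (adjusted p = 0.150) and 0.38 (adjusted p = 0.117). With log2 Xist signal as a covariate they did not pass either (adjusted p = 0.377 and 0.374). The arrays of low Xist signal were 3 wildtype, with wildtype array 2 among them, and 2 SMA vehicle. Among these, L1cam was higher in SMA vehicle cords by 1.38 ± 0.22 on 1450435_at (adjusted p = 0.0137). With only wildtype array 2 left out of all arrays, that difference was 1.20 ± 0.11. Among arrays of high Xist signal, ceftriaxone against vehicle gave -0.92 ± 0.13 (adjusted p = 0.00227).

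Chl1, the close homologue of L1, was called in the same comparisons and directions as L1cam. Its probe set 1417795_at read 335.3, 222.9, 245.0 and 253.3 in wildtype, 724.9, 697.0, 741.5 and 996.2 in SMA vehicle, and 437.0, 279.0, 416.9 and 303.7 in ceftriaxone cords. Every vehicle array lay above all others, and the ceftriaxone and wildtype ranges overlapped. The rise in SMA vehicle cords was 1.53 ± 0.17 (adjusted p = 1.33e-05), the difference after ceftriaxone was -1.11 ± 0.17 (adjusted p = 0.000328), and ceftriaxone cords differed from wildtype by 0.41 ± 0.17 (adjusted p = 0.188).

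The promoters of L1cam and Chl1, which rose together, are shown with that of Cntn1, whose brighter probe set did not pass in any comparison. They were taken from RefSeq (GRCm38.p6), which listed 6 of the 10 genes in the table used, at the most upstream start of each gene, from 250 bases before to 50 after it. Capitals mark the GC box (GGGCGG) and the CCAAT box (CCAAT), searched on both strands together with the TATA box (TATAAA). The regions are chrX:73880785-73881084 on the minus strand for L1cam, chr6:103510626-103510925 on the plus strand for Chl1, and chr15:92050915-92051214 on the plus strand for Cntn1.
L1cam: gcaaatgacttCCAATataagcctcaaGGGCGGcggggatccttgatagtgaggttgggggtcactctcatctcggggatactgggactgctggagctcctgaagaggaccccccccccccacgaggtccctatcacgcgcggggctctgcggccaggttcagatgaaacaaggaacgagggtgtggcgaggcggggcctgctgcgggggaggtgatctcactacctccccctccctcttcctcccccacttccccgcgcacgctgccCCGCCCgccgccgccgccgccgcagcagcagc
Chl1: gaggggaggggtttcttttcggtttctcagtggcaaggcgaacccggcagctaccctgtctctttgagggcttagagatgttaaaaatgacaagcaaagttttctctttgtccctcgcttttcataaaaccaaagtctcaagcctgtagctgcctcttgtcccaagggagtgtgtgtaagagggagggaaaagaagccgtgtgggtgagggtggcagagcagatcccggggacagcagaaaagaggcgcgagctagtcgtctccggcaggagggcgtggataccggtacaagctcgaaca
Cntn1: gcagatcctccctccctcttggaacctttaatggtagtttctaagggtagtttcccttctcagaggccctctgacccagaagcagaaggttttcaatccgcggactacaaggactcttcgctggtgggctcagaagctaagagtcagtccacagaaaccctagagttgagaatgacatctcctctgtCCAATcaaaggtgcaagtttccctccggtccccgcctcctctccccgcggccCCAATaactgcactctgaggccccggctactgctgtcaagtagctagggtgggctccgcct
The L1cam window held 2 GC boxes and 1 CCAAT box, with 22 CG dinucleotides. That of Chl1 held none of these motifs and 13 CG dinucleotides. That of Cntn1 held 2 CCAAT boxes, no GC box and 9 CG dinucleotides. None of the 3 held a TATA box. Of 32851 mouse promoters of this length, 35.7% held a GC box, 37.4% a CCAAT box and 13.6% a TATA box, and the median was 7 CG dinucleotides. The promoters of L1cam and Chl1 shared none of the searched motifs.

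Nrcam, the L1 family member that gathers sodium channels at forming nodes, rose less. Its probe set 1434709_at read 1586.8, 955.4, 1407.6 and 1325.9 in wildtype, and 1718.1, 1741.4, 1711.2 and 1840.1 in SMA vehicle cords. The ceftriaxone arrays read 1461.8, 1433.0, 1513.4 and 1486.8. All vehicle arrays lay above all wildtype and all ceftriaxone arrays. The rise was 0.43 ± 0.12 (adjusted p = 0.00969), and it was 0.28 ± 0.07 without wildtype array 2 (adjusted p = 0.00258). Among arrays of low Xist signal it was 0.45 ± 0.22, which did not pass (adjusted p = 0.214). The difference between ceftriaxone and vehicle, -0.25 ± 0.12, did not pass (adjusted p = 0.125), but it did without wildtype array 2, which narrows the shared spread (adjusted p = 0.00493).

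Cntn1, the contactin that links axon and myelin beside the node, differed little. Probe set 1449563_at ran from 7659.7 to 10723.4 in wildtype, from 9137.9 to 11249.1 in SMA vehicle and from 9959.8 to 10985.4 in ceftriaxone arrays. Its differences were 0.06 ± 0.10, 0.07 ± 0.10 and 0.12 ± 0.10 in the 3 comparisons (adjusted p = 0.673, 0.623 and 0.53). Probe set 1452981_at gave 6909.9, 4701.0, 6383.1 and 6476.9 in wildtype and 6795.2, 7512.6, 7410.9 and 7328.5 in SMA vehicle cords, which overlapped. It rose by 0.26 ± 0.10 with an adjusted p of 0.0487. That call ended when wildtype array 3, any SMA vehicle array or any ceftriaxone array was left out (adjusted p = 0.0508 to 0.105), and without wildtype array 2 the rise was 0.14 ± 0.05 (adjusted p = 0.0426). Among arrays of low Xist signal it was 0.33 ± 0.19, which did not pass (adjusted p = 0.279).

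Cntn2 and Cntnap1 lay below the filter. Cntn2, the axonal contactin of the region beside the paranode, read 45.8 to 87.6 in wildtype, 56.3 to 138.4 in SMA vehicle and 61.2 to 97.9 in ceftriaxone arrays, with overlap throughout. Cntnap1, the axonal partner of Cntn1 at the paranode, read 133.9, 56.2, 98.4 and 93.5 in wildtype, 59.3, 53.3, 77.8 and 58.7 in SMA vehicle, and 94.1, 116.0, 105.0 and 134.4 in ceftriaxone cords. In the model over all 22626 probe sets, Cntnap1 rose by 0.71 ± 0.21 after ceftriaxone (adjusted p = 0.0285), where 11.5% of all probe sets rose and 22.4% were called. Cntnap1 had -0.47 ± 0.21 in SMA vehicle against wildtype cords (adjusted p = 0.112). These groups overlapped only through wildtype array 2, which held the 56.2. The remaining wildtype arrays (93.5 to 133.9) lay above every SMA vehicle array (highest 77.8). Cntn2 passed in no comparison (adjusted p = 0.249, 0.437 and 0.886). Over all probe sets, 31.3% were called in SMA vehicle against wildtype cords and 2.02% in ceftriaxone against wildtype cords.

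Thy1, a small lipid-anchored immunoglobulin protein of mature axons and of thymocytes, went the other way. Its signals were 6508.8, 7589.5, 6558.8 and 6580.4 in wildtype, 4271.1, 4202.1, 3872.4 and 3440.3 in SMA vehicle, and 5487.1, 5495.7, 5291.7 and 5973.5 in ceftriaxone cords. No 2 groups overlapped, and ceftriaxone arrays lay between. The highest value belonged to wildtype array 2, the array with thymocyte genes. Thy1 fell by 0.79 ± 0.08 in SMA vehicle cords (adjusted p = 7.59e-06), and its difference was -0.73 ± 0.07 without that array (adjusted p = 3.26e-06). It rose by 0.50 ± 0.08 after ceftriaxone (adjusted p = 0.000521). Against wildtype, ceftriaxone cords had -0.29 ± 0.08, which did not pass (adjusted p = 0.0628). Of the 12 runs that left out 1 array, it passed only without SMA vehicle array 4 (adjusted p = 0.0499 to 0.178 over these runs). That array enters this comparison only through the shared spread. The difference passed with array weights (adjusted p = 0.0284) and did not with log2 Xist signal as a covariate (adjusted p = 0.296).

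**Figure D4:**
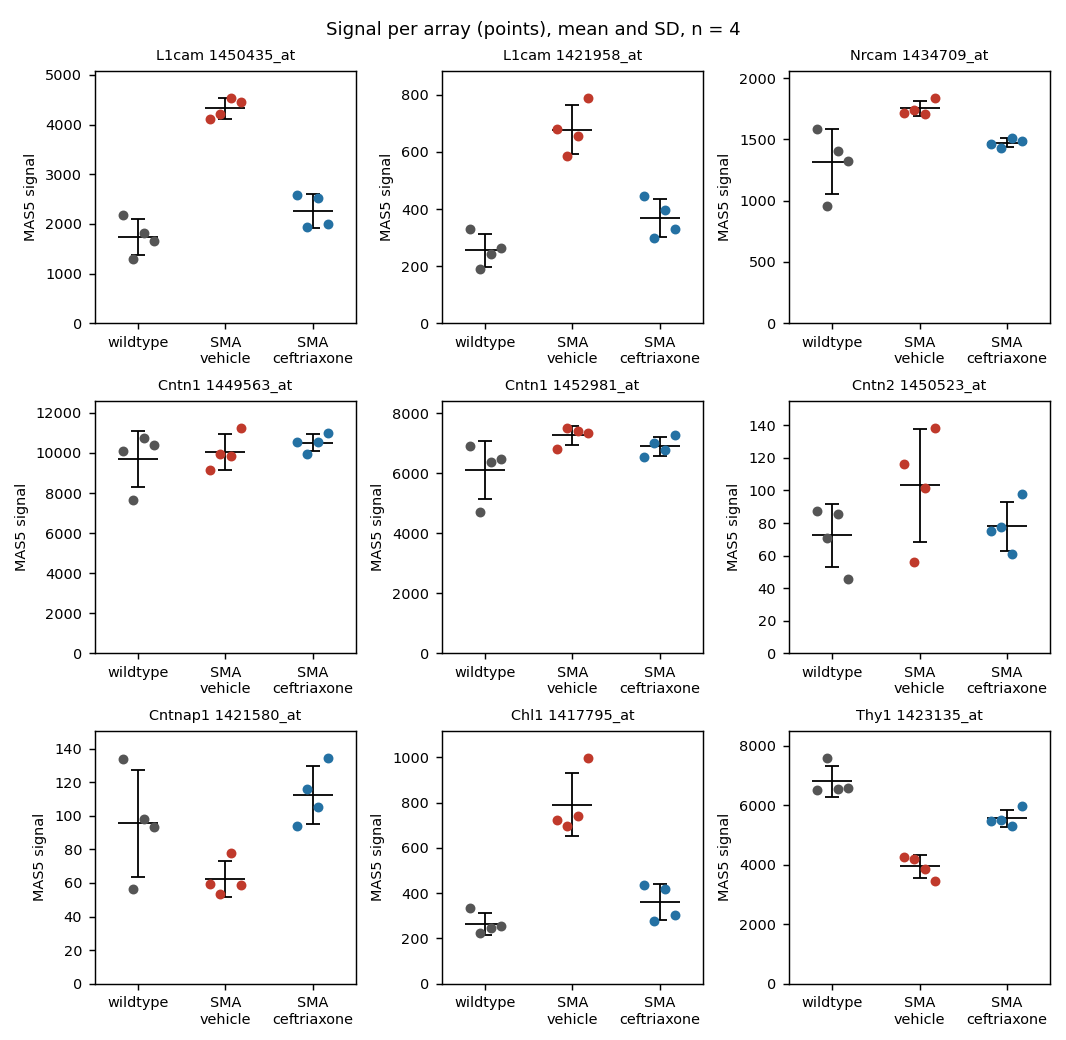
MAS5 signal (linear axes from 0) of the probe sets of L1cam, Nrcam, Cntn1, Cntn2, Cntnap1, Chl1 and Thy1 on each array, with the group mean and SD (n = 4). SMA vehicle arrays lie above all others for L1cam, Nrcam and Chl1 and below all others for Thy1 (3440.3 to 4271.1), and the groups overlap for Cntn1 and Cntn2.

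In ceftriaxone against vehicle cords, 5 of the 11 probe sets fell (Ncam1 and L1cam on 2 each, and Chl1) and 1 rose (Thy1), where 17.7% of all tested probe sets fell, 18.3% rose and 35.9% were called in all. The groups did not overlap for 7 of the 11, as for 45.3% of all tested probe sets. Against wildtype, ceftriaxone cords had 2 of the 11 higher, both of Ncam1, and 0 lower, where 3.29% of all tested probe sets were higher, 0.928% lower and 4.21% called in all. Here 3 of the 11 did not overlap, as did 11.6% of all tested probe sets. With log2 Xist signal as a covariate, the 2 Ncam1 differences were 0.75 ± 0.14 (adjusted p = 0.0458) on 1426864_a_at and 0.52 ± 0.11 (adjusted p = 0.0545) on 1426865_a_at. Among the arrays of high Xist signal, of which 1 was wildtype, they were 0.70 ± 0.15 and 0.51 ± 0.12 (adjusted p = 0.109 and 0.138). Their sizes thus stayed near those over all arrays (0.71 and 0.58), and 1 call of 2 ended in the first case and both in the second. These comparisons share the SMA vehicle or wildtype arrays with the first, so they are not independent of it.

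**Figure D5:**
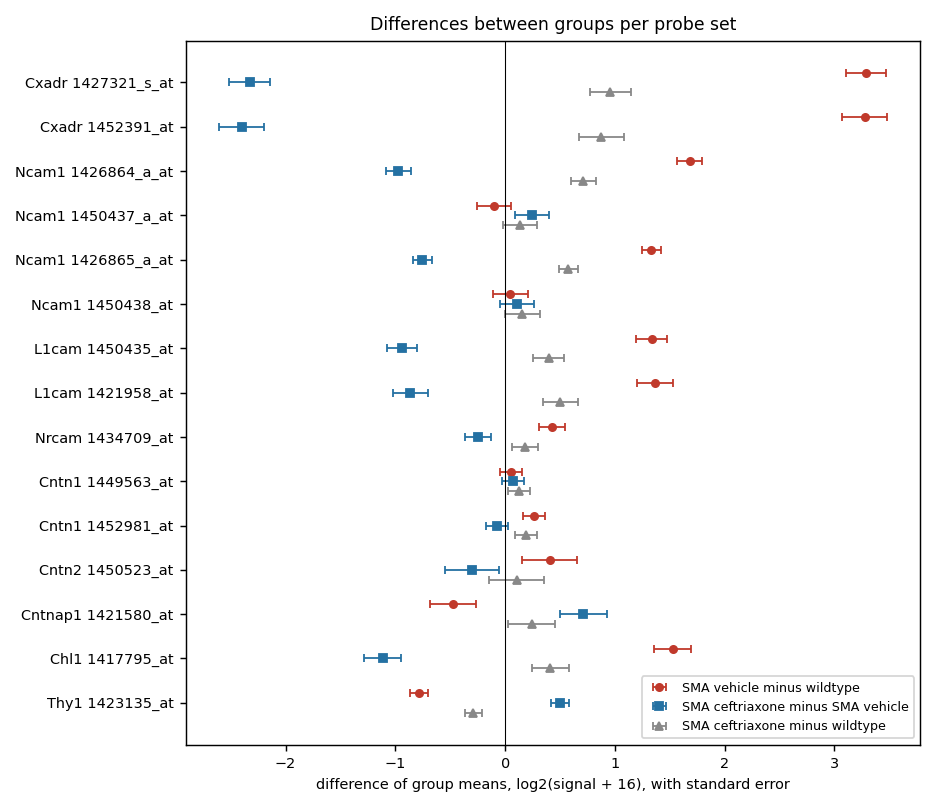
Differences between group means on the log2(signal + 16) scale (horizontal axis) with the standard error for 15 probe sets, in the 3 comparisons. In SMA vehicle minus wildtype, Cxadr stands farthest to the right (3.29 and 3.27) and Ncam1 splits into probe sets near 1.5 and near 0. In that comparison Thy1 is the only one of those that passed the filter with a clear negative difference (-0.79).

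Genes around these molecules were taken from lists of known partners and relatives. Their counts were not tested against other genes. Among the relatives of Cxadr and its junction partners, 14 passed the filter, of which 4 rose and 5 fell in SMA vehicle cords, with a median of -0.23, where 24.9% of all tested probe sets rose and 22.3% fell. Clmp, an adhesion molecule named for its likeness to Cxadr, rose by 1.79 ± 0.17 (adjusted p = 3.87e-06), from 316.0 ± 69.3 to 1132 ± 228 (SD, n = 4), and stood at 356 ± 53.8 after ceftriaxone (difference -1.62 ± 0.17; adjusted p = 4.7e-05). Lnx1, a ubiquitin ligase that binds the Cxadr tail, rose by 0.65 ± 0.10. Jam3, a junctional adhesion molecule also made by oligodendrocytes, fell by 1.65 ± 0.17, and the tight junction scaffold gene Tjp1 fell by 0.66 ± 0.10. After ceftriaxone, 5 of the 14 rose and 3 fell, where 18.3% of all tested probe sets rose and 17.7% fell.

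Of 20 genes of the node and its borders above the filter, 5 rose and 9 fell in SMA vehicle cords, with a median of -0.28, beside 24.9% and 22.3% of all tested probe sets. After ceftriaxone 11 rose and 4 fell, beside 18.3% and 17.7%. Scn3b, an accessory sodium channel subunit with an immunoglobulin domain, rose by 1.60 ± 0.10 (adjusted p = 4.13e-07). It remained higher in ceftriaxone than in wildtype cords by 0.96 ± 0.10 (adjusted p = 0.00117). Hapln2, which links hyaluronan to the matrix of the node and is made by oligodendrocytes, fell by 2.64 ± 0.26, the potassium channel subunit gene Kcnab2 fell by 1.59 ± 0.13, and the scaffold gene Dlg1 fell by 0.95 ± 0.09. Of genes picked after their values were seen, Scn2a, the sodium channel of immature nodes, rose by 0.84, and Scn8a, that of mature nodes, fell by 0.81. Kcna1, a potassium channel beside the paranode, fell by 2.25, while Cntnap2, the relative of Cntnap1 that anchors it there, rose by 1.02.

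Of 19 other adhesion molecules of the immunoglobulin superfamily above the filter, 13 rose and 3 fell in SMA vehicle cords, with a median of 0.58, beside 24.9% and 22.3% of all tested probe sets and their median of 0.01. Nectin2, an adherens junction molecule, rose by 1.45 ± 0.11 (adjusted p = 1.18e-06), the lipid-anchored neurotrimin gene Ntm by 1.28 ± 0.13, the synaptic adhesion gene Cadm3 by 1.18 ± 0.11, and the contactin Cntn4 by 0.86 ± 0.10. The 3 that fell were Mag, a protein of myelin (-2.23), Mcam, a vascular adhesion molecule (-1.33), and Igsf8 (-0.43). After ceftriaxone 10 of the 19 fell and 3 rose, beside 17.7% and 18.3% of all tested probe sets. Nectin2 (0.65), Cadm3 (0.56) and Ntm (0.51) were still higher in ceftriaxone than in wildtype cords.

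The list of polysialylation and signalling partners of Ncam1 and L1cam held 13 genes above the filter, of which 4 rose and 5 fell in SMA vehicle cords, with a median of 0.17, beside 24.9% and 22.3% of all tested probe sets. St8sia2 and St8sia4, the enzymes that attach polysialic acid to Ncam1, rose by 2.24 ± 0.20 (adjusted p = 3e-06) and 0.69. St8sia4 was picked after its value was seen. Gap43, a growth cone protein, rose by 1.99 ± 0.14, and Dcx, a microtubule-binding protein of young neurons, by 2.53 ± 0.22. These are values of the brightest probe set of each gene, and dimmer ones of St8sia2 and Dcx rose by 2.83 ± 0.20 and 2.95 ± 0.23. Numb, an endocytic adaptor, fell by 0.77 ± 0.10, and of the 5 that fell it is the only gene named here. After ceftriaxone 3 of the 13 rose and 4 fell, beside 18.3% and 17.7% of all tested probe sets, with St8sia2 at -1.65 ± 0.20 and Gap43 at -1.27 ± 0.14.

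Among markers of the cells that make these molecules, the neuron list was mixed: 7 of 12 rose and 3 fell in SMA vehicle cords, with a median of 0.45. Its summed signal there (74475.0 to 82142.0) lay within the wildtype range (58833.2 to 87220.7) only because of wildtype array 2, which held the 58833.2. The remaining wildtype arrays (83695.5 to 87220.7) lay above every SMA vehicle array. All 10 oligodendrocyte and myelin genes fell, with a median of -2.35. Of 8 each, 5 endothelial and 5 microglial genes fell and 0 rose, and of 8 astrocyte genes 4 fell and 2 rose, where 22.3% of all tested probe sets fell and 24.9% rose. The sum of 5 sensory ganglion markers was 951.9 to 1682.5 in wildtype, 1265.7 to 2030.4 in SMA vehicle and 851.7 to 1046.3 in ceftriaxone arrays. Of 8 Schwann cell markers, 3 were on the array, led by Mbp, which oligodendrocytes make as well, and the 2 above the filter fell.

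The genes whose signals were most like that of Cxadr were sought over 8003 other genes by Pearson's r with 1427321_s_at on the 12 arrays. The 12 arrays fall into 3 groups, so r mainly reflects the group differences and is given as a description. The highest were Nucb2 (0.994), a calcium-binding secretory protein, Neurod6 (0.993), a neuronal transcription factor, and Evl (0.993), an actin regulator. Dlgap4 (0.993), a postsynaptic scaffold, Zfp821 (0.992) and Smpd3 (0.991), a sphingomyelinase, followed. Neurod6 went from 75.9 to 125.7 in wildtype to 475.6 to 659.0 in SMA vehicle and 154.0 to 235.4 in ceftriaxone arrays. The lowest were the lipid kinase gene Pip4k2a (-0.994), the valine catabolism gene Hibadh (-0.993) and Frmd8 (-0.989). Of the listed genes, Ncam1 (0.976, 1426864_a_at), Chl1 (0.973) and L1cam (0.968) were close to Cxadr, Nrcam had 0.764, Cntn1 0.137 and Thy1 -0.975.

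Within groups, after each group's mean was subtracted, the highest correlations with Cxadr were those of Coro1c (0.947), an actin-binding coronin, Syne2 (0.929), a nuclear envelope protein, and Prkar2a (0.921), a protein kinase A subunit. The corresponding values were 0.762 for Chl1, 0.656 for Ncam1, 0.636 for L1cam and -0.695 for Thy1. Arrays 3 and 4 of the SMA vehicle group, which had the highest Cxadr signals, enter each of these. Coro1c, Syne2 and Prkar2a were picked as the highest of 8003 genes over 12 arrays, where high values can arise by chance. They are given as a description.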

How the data were processed

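Spinal cord RNA of 12 mice was hybridised to 1 array each, and sample titles gave 3 groups of 4. The authors deposited MAS5 values, a linear signal intensity for each probe set, as the submitters' processing notes name the method. The authors' scaling is visible in the values: after trimming 2% at either end, array means lay between 699.905 and 699.916. Symbols were taken from the platform annotation (20393 of 22690 probe sets with 1 symbol, 691 with several, 1606 with none) and updated through gene identifiers for 20364. Probe sets with several symbols were left unnamed.

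Signals were transformed to log2 after adding 16. Of 22626 probe sets left after dropping 64 controls, the 13575 above the 40th percentile of the mean log2 value were tested (lowest mean 7.14, a geometric mean signal of 125). One mean per group was modelled with limma 3.58.1 (R 4.3.3; eBayes, trend on intensity, with 9 degrees of freedom left). P-values are two-sided and were adjusted by Benjamini-Hochberg over the tested probe sets at a threshold of 0.05. Members below the filter were read from a second model that held every probe set. Cxadr was given no p-value. The models were tested on simulated data.

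From each partner list at most the 4 genes of smallest p were to be named, and from each marker list at most the 3 brightest, each by its brightest probe set. Genes added to these were chosen after their values were seen (Scn2a, Scn8a, Kcna1, Cntnap2, Mag, Mcam, Igsf8 and St8sia4). Marker lists are mostly given as counts and sums. The genes followed and all lists were chosen with earlier results of these data known. Nothing says how litters or batches were shared, so p-values measure only the spread between these samples. Replicate numbers gave no sign of pairing the arrays: deviations of same-numbered arrays correlated at -0.143 to 0.133. Arrays of different number were not compared in this way, so whether numbers share a litter or batch was not tested. Alternatives were other offsets, filters and normalizations, array weights, covariates, and leaving out each array. Splits of the arrays by Xist signal were added to these and were not planned.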

Additional observations from a re-analysis of the deposited data

Results flagged for a closer look

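Chl1 in SMA vehicle cords had 1 array far above the others of its group, with a signal of 996.2 on array 4 where the next was 741.5. Thy1 had 1 wildtype array far above its group, at 7589.5 with the next at 6580.4, and this was wildtype array 2. The dim Ncam1 probe set 1425126_at had 1 SMA vehicle array far below its group, at 15.1 with the next at 39.7.

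Among marker sums, wildtype array 2 stood apart for thymocyte genes (38369.5, next 295.1) and for neuron genes (58833.2, next 83695.5). The summed muscle signal had 1 high array in wildtype (1971.6, next 885.0) and 1 in the ceftriaxone group (950.6, next 463.7). These were 3 of 57 group checks over the followed genes and 4 of 30 over marker sums, and chance alone singles out about 1 group in 20.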

How the results depend on the processing

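No difference of the followed genes changed its sign where it was called, under any alternative run. Of the repeated results of the 11 tested probe sets, 788 stayed on their side of the threshold, 13 gained a call and 21 lost one. Cxadr had no test. Of its repeated differences, 146 moved by less than the replicate SD and 1 by more: 1452391_at was higher by 2.74 in SMA vehicle cords with an offset of 64. At a filter at the 60th percentile that probe set and Ncam1 1450438_at gave no value. The count of probe sets that differed between ceftriaxone and wildtype cords, 572, was the least stable. It was 236 after median centring, 1826 with array weights, 111 with only those groups fitted, 80 with Xist as a covariate and 213 with the Gapdh 3 prime to 5 prime ratio as one. Without 1 array it ran from 164 (without ceftriaxone array 3) to 1434 (without wildtype array 2), and the followed genes' calls there ran from 2 to 4, with 1 under the Xist covariate. With the replicate number as a block it was 344, and Cntn1 1452981_at lost its call in SMA vehicle against wildtype cords (limma adjusted p = 0.0697). The cause of these shifts was not tested. The number of arrays, and for dim probe sets their low signal, limit what could be seen.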
